A study of Mus musculus with 12 samples.

Results

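The genes described here changed early after liver resection and had turned back by 12 h. They were found by setting the 6 libraries from livers taken 3 h and 6 h after a 70% partial hepatectomy against the 6 libraries from sham-operated livers and livers taken at 12 h. A gene was taken when all 6 early values lay above, or all 6 lay below, the other 6 values. Of 54532 genes in the deposited table, 11451 reached 1 FPKM (counts scaled to gene length and library depth) in at least 3 libraries and were tested. All 6 early values were higher for 649 of these genes (5.67%) and lower for 772 (6.74%), together 1421 genes (12.4%). They are called rising and falling genes here. Among the 43081 genes under the filter, another 85 lay above and 212 below, with a median of 12.5 and 30.4 counts per library, and these were not analysed.

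Every mouse was wild-type C57/BL6J and had either a sham operation, for which the labels give no hour, or removal of 70% of the liver followed by 3, 6 or 12 h. Each group had 3 libraries of poly(A) RNA from whole liver. Replicate 3 at 6 h is tagged 7 h in 1 field, while its title, used here, says 6 h. Nothing in the labels states that replicates are different animals, and p-values may therefore reflect technical spread alone. No hour of day is given for any liver, so that hour of day and time after resection cannot be told apart in what follows. In whole liver, fewer cells of a type and less RNA per cell cannot be told apart either.

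After partial hepatectomy the remaining lobes enlarge as quiescent hepatocytes return to the cell cycle. The hours before DNA synthesis are called the priming phase. In it, cytokines such as IL-6 act through STAT3 on hepatocytes, growth factor receptors act through MAP kinases, and adrenal glucocorticoids and falling insulin change hepatic metabolism. Many immediate early genes switched on in this phase encode transcription factors or proteins that shorten the life of other mRNAs, and they are known for brief expression.

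Library totals ran from 15573405 to 17199639 counts. Scaling bears on the balance of rises and falls: TMM factors, which correct for a few abundant transcripts taking up reads, were 0.845 to 0.989 in the 6 early libraries and 1.04 to 1.12 in the other 6. With library totals in place of TMM, 319 genes lay above and 1575 below. All 319 of these rising genes and all 772 falling genes held under both scalings. Of the rising genes named here, those that did not hold with library totals were Acox2, Angptl4, Bop1, Dusp5, Epcam, Errfi1, Fas, Gadd45a, Gadd45b, Gdf15, Glud1, Gtf3c1, Hilpda, Ier2, Il6ra, Klf4, Mafk, Nip7, Plac8, Plk3, Pnpla2, Pnrc1, Ralgapa2, Rela, Rrs1, Stab1, Syt12, Tbc1d8, Trp53, Vcam1 and Zc3h12a. Mitochondrially encoded transcripts made up 11.9% of counts in sham replicate 1 and 5.52% to 8.49% in the other libraries. Without sham replicate 1 and 6 h replicate 3, 834 genes lay above and 984 below. The summed level of 7 hepatocyte markers was 36549 to 38199 FPKM in sham, 34819 to 46712 in the early libraries and 23151 to 24948 at 12 h.

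The rising genes differed from the other 6 libraries by a median of 0.95 on the log2 scale (range 0.18 to 6.97), and 312 of 649 differed at least 2-fold. The falling genes differed by a median of -0.995 (range -6.08 to -0.19), and 381 of 772 differed at least 2-fold. The median over all tested genes was 0.01. In edgeR's quasi-likelihood test, 1986 tested genes (17.3%) were called higher and 2146 (18.7%) lower in the early libraries at an adjusted p under 0.05. With library totals, these counts were 969 and 4047, so that higher genes made up 19.3% of calls in place of 48.1%, and the median over all genes moved to -0.23. The rule used this contrast, so the 635 rising and 769 falling genes among those calls are a description. Each of the 4 pairwise comparisons (3 h and 6 h, each against sham and against 12 h) was called for 377 rising genes and 431 falling genes, among 388 (3.39%) and 436 (3.81%) of all tested genes.

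Near the edge of the rule the groups touched. Just inside it, Gtf3c1, which encodes a subunit of an RNA polymerase III factor, was at 5.398, 7.31 and 5.06 FPKM at 3 h and 6.44, 5.69 and 4.85 at 6 h against 4.31, 4.75 and 4.18 in sham and 3.7003, 3.43 and 4.58 at 12 h. Its nearest early and other values were 4.85 and 4.75 FPKM. Just outside it, the proteasome subunit gene Psmc4 was at 43.3, 38.5 and 40.04 FPKM at 3 h and 45.01, 50.02 and 40.6 at 6 h against 22.5, 30.4 and 31.6 in sham and 37.7, 37.9 and 37.98 at 12 h, and its lowest early value was close to the 12 h values. On the TMM-scaled counts that the rule reads, Psmc4 overlapped. Among falling genes, Snx9, which encodes a membrane-remodelling sorting nexin, was just inside and Cnot1, the scaffold of the CCR4-NOT deadenylase, just outside. A gap of at least 0.5 on the log2 scale was met by 168 rising and 178 falling genes.

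Whether the genes came back to the sham level is measured by 12 h against sham, which the rule does not use. For most, 12 h and sham were not distinguishable, which also holds over all tested genes, of which 28.8% were called. In edgeR's test, 112 rising genes (17.3%) were still higher than sham at 12 h, 39 (6.01%) were lower and 498 (76.7%) were not called. Among falling genes, 79 (10.2%) were still lower than sham, 55 (7.12%) were higher and 638 (82.6%) were not called. The shares over all tested genes were 13.5% higher and 15.3% lower. The rule limits these counts, since a 12 h value beyond an early one removes a gene. The 12 h values overlapped the sham values for 434 rising and 512 falling genes. All 3 lay above sham for 160 rising (24.7%) and 97 falling genes (12.6%), beside 19.5% of all tested genes. All 3 lay below for 55 rising (8.47%) and 163 falling genes (21.1%), beside 19.2%.

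The part of the early change that was left at 12 h, as the log2 difference of 12 h from sham divided by that of the early livers from sham, had a median of 7.09% in rising genes and 8.10% in falling genes. For 263 rising and 369 falling genes, the 12 h level lay within 25% of the early log2 change from sham, on either side. More than 50% of the change was left in 74 rising and 53 falling genes. In 161 rising and 176 falling genes the 12 h level had passed the sham level by over 25% of the early change. Sham replicate 1 moved the counts of genes past sham: without it, 91 rising genes were lower and 125 falling genes higher than sham at 12 h. Without sham replicate 2 or 3, 32 falling genes were higher, and without 12 h replicate 2, 35. Without 12 h replicate 3, 74 rising genes were still higher and 44 falling genes still lower.

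**Figure D1:**
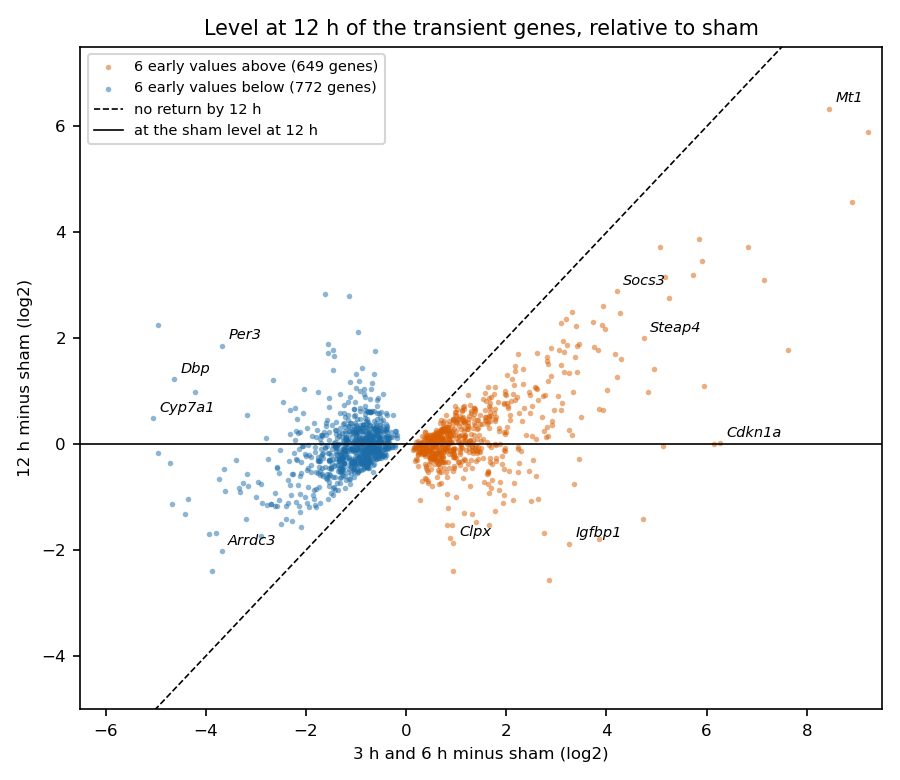
Each point is a rising gene (orange, 649) or a falling gene (blue, 772), with the log2 difference of the 3 h and 6 h livers from sham on the x axis and of the 12 h livers from sham on the y axis. Points on the solid line were at the sham level at 12 h and points on the dashed line had not moved back; Cdkn1a lies on the first, Mt1 nearer the second, and Igfbp1 and Clpx lie below sham.

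The 15 largest rises are taken from named protein-coding genes of at least 5 FPKM in the early livers. Cdkn1a (ENSMUSG00000023067, chr17:29090976-29100727) encodes p21, an inhibitor of cyclin-dependent kinases and a target of p53. Its level was 0.497, 0.484 and 1.2001 FPKM in sham, 48.1, 67.01 and 69.8 at 3 h, 55.8, 54.02 and 53.6 at 6 h and 0.883, 0.832 and 0.5201 at 12 h. The early libraries were all at least 48.1 FPKM and all others at most 1.2001, and 12 h and sham overlapped. The log2 difference of early from other libraries was 6.26 ± 0.24 (SE), and that of 12 h from sham was 0.02 ± 0.32 (edgeR adjusted p = 0.978).

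Igfbp1 (ENSMUSG00000020429, chr11:7197782-7202546) encodes a secreted protein that binds insulin-like growth factors and is repressed by insulin. It was at 55.9, 64.5 and 73.4 FPKM in sham, 472, 643 and 439 at 3 h, 689, 778 and 828 at 6 h and 28.2, 11.8 and 12.96 at 12 h. No early value came near the others, and all 3 values at 12 h were below all sham values. It was higher in the early livers by 4.19 ± 0.22 and at 12 h differed from sham by -1.88 ± 0.29 (edgeR adjusted p = 4.23e-04).

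The metallothioneins Mt1 and Mt2 bind zinc and copper and answer to glucocorticoids and IL-6. Mt1 was at 3.4005, 15.02 and 16.4 FPKM in sham, 2771, 2769.9 and 3758 at 3 h, 4989, 6516 and 5286 at 6 h and 1011, 923 and 912 at 12 h. It was far above sham at every time, and the early values were also above those at 12 h. At 12 h it remained 6.34 ± 0.47 above sham (edgeR adjusted p = 1.74e-06), so that 75.03% of the early change was left. Mt2 had 3 counts over the 3 sham libraries, 1581 at 3 h, 1185 at 6 h and 81 at 12 h, and no log2 difference is given because sham rests on so few. Reads of Mt1 and Mt2 may be shared, since they are close copies.

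Cxcl1 encodes a chemokine that draws neutrophils. It was at 5.99, 2.06 and 1.14 FPKM in sham, 186, 132 and 144 at 3 h, 143, 189.7 and 296 at 6 h and 17.4, 44.6 and 73.6 at 12 h. The early values were all at 132 FPKM or more, and the 12 h values were all above sham, 3.88 ± 0.59 higher (edgeR adjusted p = 4.07e-04). The summed level of 16 neutrophil markers moved with it, with ranges of 3.52 to 6.28 FPKM (sham), 16.9 to 22.9 (3 h), 13.6 to 24.1 (6 h) and 9.15 to 11.6 (12 h). Mpo was at 0 counts in all groups. The filter of 1 FPKM in 3 libraries was met by 5 of the 16 markers, and high early libraries alone can meet it. All 5 were called higher, a count partly set by the filter and no independent support. Retnlg and Csf3r were rising genes. The part of neutrophils in the result was not tested.

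Steap4 (ENSMUSG00000012428, chr5:7960457-7982213), which encodes a metalloreductase induced by inflammatory cytokines, was at 29.2, 23.3 and 25.2 FPKM in sham, 519, 723 and 663 at 3 h, 638, 711 and 1041 at 6 h and 88.9, 94.2 and 132 at 12 h. It stood in 3 separate steps, with sham lowest, 12 h between and the early livers highest. The 12 h level was 2.01 ± 0.22 above sham (edgeR adjusted p = 3.24e-05). The interleukin 1 receptor gene Il1r1 had the same order, at 7.25, 4.51 and 5.22 FPKM in sham, 72.97, 102 and 105 at 3 h, 93.9, 103 and 150.5 at 6 h and 12.7, 16.8 and 26.3 at 12 h. At 12 h it was 1.70 ± 0.28 above sham (edgeR adjusted p = 6.29e-04).

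**Figure D2:**
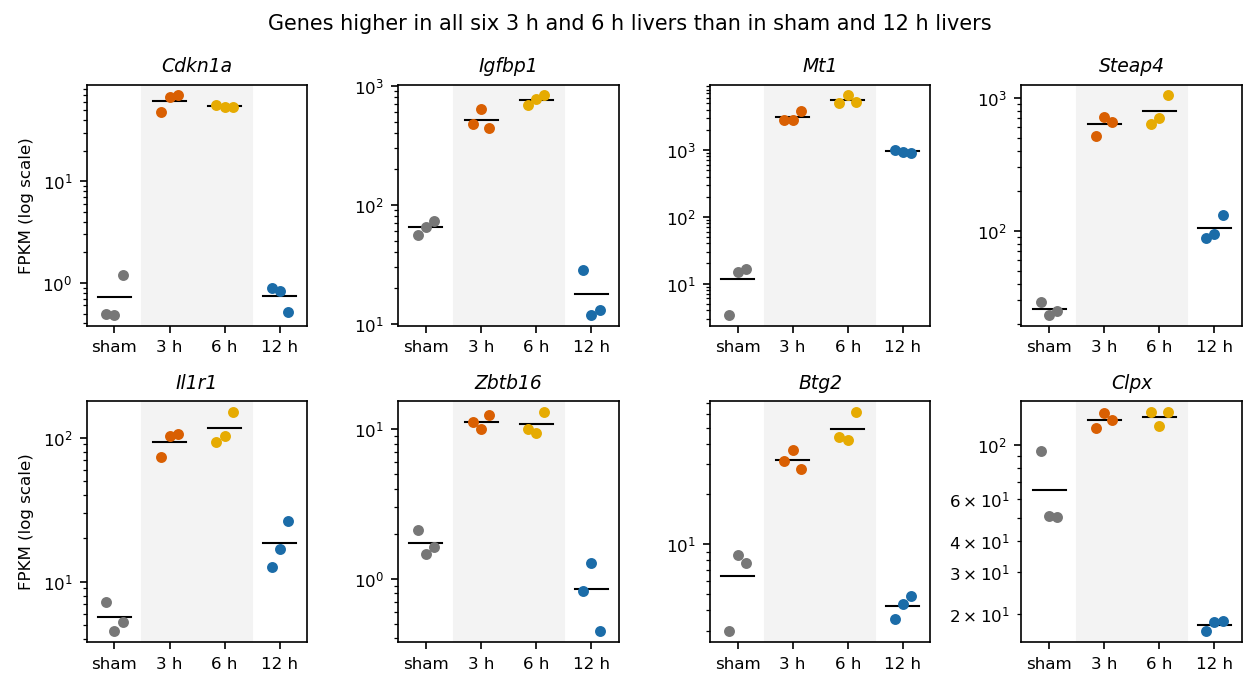
FPKM (log scale) of 8 rising genes in sham livers and at 3, 6 and 12 h, with 1 point per library, black bars for group means of 3 libraries and grey shading over the early groups. Cdkn1a and Btg2 overlap sham at 12 h, Mt1, Steap4 and Il1r1 stay above it, and Igfbp1, Zbtb16 and Clpx fall below it.

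Promoters of some of the largest rises are printed, chosen for holding a motif. RefSeq's table of GRCm38.p6 gave the 250 bases before the start of 4 of them in which a motif was found, with the motif in capitals. Genes were taken in order of size, and Cdkn1a and Igfbp1 were passed over for want of a promoter or a motif. The 4 therefore do not show how common motifs are among the rises. The letters searched on both strands were TGACTCA (AP-1 site), TGACGT (CRE-type site), CACGTG (E-box), TTCNNNGAA (STAT site) and AGAACA (glucocorticoid receptor hexamer), beside the CArG box and the kappaB site by name. A capital run that joins matches marks overlapping ones.
Mt2: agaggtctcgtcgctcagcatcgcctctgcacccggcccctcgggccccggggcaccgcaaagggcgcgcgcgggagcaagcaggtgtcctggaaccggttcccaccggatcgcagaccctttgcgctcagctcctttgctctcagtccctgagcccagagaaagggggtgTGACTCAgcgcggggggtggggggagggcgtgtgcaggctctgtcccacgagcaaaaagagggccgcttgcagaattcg
Mt1: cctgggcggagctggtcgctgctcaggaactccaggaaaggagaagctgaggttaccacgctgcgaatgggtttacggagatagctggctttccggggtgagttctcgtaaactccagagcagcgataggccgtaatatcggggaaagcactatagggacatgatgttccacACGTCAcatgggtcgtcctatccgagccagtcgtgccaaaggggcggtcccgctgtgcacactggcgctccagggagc
Cxcl1: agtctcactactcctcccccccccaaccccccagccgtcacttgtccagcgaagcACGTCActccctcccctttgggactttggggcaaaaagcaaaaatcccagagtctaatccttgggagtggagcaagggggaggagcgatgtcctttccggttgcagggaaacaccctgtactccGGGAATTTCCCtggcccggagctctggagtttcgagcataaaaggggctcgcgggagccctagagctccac
Steap4: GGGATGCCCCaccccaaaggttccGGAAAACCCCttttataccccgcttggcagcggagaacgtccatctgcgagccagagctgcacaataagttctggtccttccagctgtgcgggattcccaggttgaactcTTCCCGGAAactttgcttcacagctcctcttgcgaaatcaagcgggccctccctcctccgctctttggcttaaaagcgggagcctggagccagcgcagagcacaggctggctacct
The Mt2 window (chr8:94172368-94172617, plus strand) holds an AP-1 site at position -79 from the start, and the Mt1 window (chr8:94178839-94179088, plus strand) a CRE-type site at -78, on the reverse strand. Cxcl1 (chr5:90890995-90891244, plus strand) holds a CRE-type site at -195 and 2 overlapping kappaB sites at -71 and -70. Steap4 (chr5:7960222-7960471, plus strand) holds kappaB sites at -250 and -226 and a STAT site at -116. Of the 8124 tested genes with a promoter in the table, 3.02% held the AP-1 letters, 10.7% the CRE-type site, 5.72% the STAT site and 4.41% the kappaB site. A match is a description of letters and not a binding site. Only 486 of 649 rising and 578 of 772 falling genes matched the table, fewer than 80%, so a check of motif shares over the members is void.

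Among the other large rises, Zbtb16, a zinc finger factor induced by glucocorticoids, was at 2.12, 1.46 and 1.63 FPKM in sham, 11.2, 10.04 and 12.4 at 3 h, 9.95, 9.47 and 13.02 at 6 h and 0.829, 1.27 and 0.445 at 12 h. The 12 h values were all below sham (log2 difference -1.03 ± 0.29, edgeR adjusted p = 0.0162). Lpin1, a phosphatidate phosphatase that also coactivates fat oxidation genes, was at 5.91, 5.76 and 9.01 FPKM in sham, 31.9, 14.6 and 82.2 at 3 h, 29.5, 35.5 and 45.97 at 6 h and 1.71, 2.89 and 5.29 at 12 h. Its 3 h values spread from 14.6 to 82.2 FPKM, and 12 h was not called against sham (-1.08 ± 0.51, edgeR adjusted p = 0.128). Cyp2b10, a drug-metabolising P450, had early values of 7.58 to 16.6 FPKM against at most 1.49 in the others.

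The remaining large rises were Tacc2, a centrosomal protein gene (3.61), Gadd45g, a stress-induced growth inhibitor (3.49), Syt12, a synaptotagmin (3.21), Scara5, a ferritin receptor (2.94), and Btg2 (2.89), which encodes an antiproliferative factor that recruits mRNA deadenylases. Btg2 was at 2.98, 8.58 and 7.72 FPKM in sham, 31.4, 36.8 and 27.997 at 3 h, 43.6, 42.02 and 61.99 at 6 h and 3.55, 4.33 and 4.8996 at 12 h. The 12 h values overlapped sham and were far under every early value. Gadd45g was at 1.05, 13.4 and 23.5 FPKM in sham, with replicate 1 lowest, and at 190.2 or more in every early library. Of the 15 largest rises, 14 met the rule with library totals too, and Syt12 did not.

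Immediate early genes, which need no new protein for induction, rose as a group: 22 of 29 tested members were called higher and 1 lower in the early livers, with a median log2 difference of 1.35. All 6 early values were higher in 14 and lower in none. Over all tested genes, 17.3% were called higher and 18.7% lower, and 5.67% rose and 6.74% fell by the rule. At 12 h, 2 members were higher and 5 lower than sham, beside 13.5% and 15.3% of all tested genes. The same shares stand beside the counts of every list below. The AP-1 subunit gene Fos was at 0.175, 0.389 and 0.464 FPKM in sham, 8.63, 1.79 and 1.303 at 3 h, 1.88, 1.77 and 3.35 at 6 h and 1.06, 0.303 and 0.286 at 12 h. The early values cleared the rest by little, and 3 h replicate 1 was the highest (early minus other 2.76 ± 0.52). Junb, another AP-1 subunit gene, was at 4.12, 21.9 and 10.9 FPKM in sham, 109.6, 68.5 and 73.7 at 3 h, 78.5, 67.6 and 61.96 at 6 h and 14.9, 12.2 and 12.7 at 12 h, an early difference of 2.55 ± 0.30, and 12 h was not called against sham (0.09 ± 0.41, edgeR adjusted p = 0.888).

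Jun itself was at 16.6, 21.2 and 16.3 FPKM at 3 h and 15.6, 15.04 and 13.7 at 6 h against 1.18, 9.93 and 7.17 in sham and 6.73, 4.95 and 6.04 at 12 h. Its 12 h and sham values overlapped (-0.06 ± 0.46 for 12 h against sham, edgeR adjusted p = 0.939). The other members with all early values higher were Fosl2, Gadd45a, Gadd45b, Gadd45g, Ier2, Klf4, Klf6, Rhob, Sgk1, Zfp36 and Btg2. Ier2 had dropped under sham at 12 h (log2 difference -1.21, edgeR adjusted p = 0.00241). Egr1 overlapped through sham replicate 1 (17.2, 5.84 and 3.19 FPKM in sham against 40.8, 14.1 and 10.6 at 3 h). Atf3 (edgeR adjusted p = 0.133) and Hes1 (edgeR adjusted p = 0.203) were not called.

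Of 12 factors that degrade mRNA or check proliferation, 8 were called higher and 1 lower, with all 6 early values higher in 7 and lower in 1. Btg1, Btg2, Gadd45a, Gadd45b, Gadd45g and Zfp36 are also in the immediate early list. Zfp36 encodes tristetraprolin, which binds AU-rich elements and removes mRNAs of cytokines and immediate early genes. It was at 15.6, 16.98 and 18.4 FPKM in sham, 58.8, 50.5 and 68.5 at 3 h, 51.6, 41.7 and 63.2 at 6 h and 13.3, 14.5 and 15.01 at 12 h, with 1.81 ± 0.12 between early and other livers and 12 h values just under sham that were not called (-0.26 ± 0.16, edgeR adjusted p = 0.253). Its relative Zfp36l1 was higher by 1.28 and was -0.93 from sham at 12 h (edgeR adjusted p = 0.00238). Zc3h12a, the endonuclease regnase-1, was higher by 1.07. Tob1, an antiproliferative relative of Btg2, was the falling member (-1.26).

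Feedback inhibitors of MAP kinase signalling followed: 8 of 12 were called higher and none lower, and all early values were higher in Dusp5, Dusp8, Errfi1 and Spry1. Dusp8, a MAP kinase phosphatase, was at 1.82, 1.79 and 1.62 FPKM at 3 h and 2.86, 2.41 and 1.56 at 6 h against 0.121, 0.419 and 0.673 in sham and 0.478, 0.236 and 0.253 at 12 h (early minus other 2.42 ± 0.32). With library totals, 5 of the 12 were called higher. At 12 h, 1 member was higher and 4 lower than sham.

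In the IL-6 and STAT3 pathway, 12 of 17 members were called higher and 1 lower, with a median of 1.33. Receptors were among those with all early values higher: Il6ra, Il6st (gp130), Il1r1 and the TNF receptor gene Tnfrsf1a. So were the signal transducer Stat3 and its targets Socs3, Cebpd, Pim3 and Bcl3. Stat3 had group means of 10.2 FPKM in sham, 29.9 at 3 h, 32.96 at 6 h and 14.7 at 12 h and was still 0.52 above sham at 12 h (edgeR adjusted p = 0.00466). Il6ra, by contrast, was not called at 12 h against sham (-0.10, edgeR adjusted p = 0.808).

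Socs3, which shuts off IL-6 signalling, was at 0.692, 3.53 and 2.05 FPKM in sham, 37.03, 32.5 and 31.2 at 3 h, 58.7, 43.1 and 38.6 at 6 h and 17.2, 15.2 and 14.9 at 12 h. Every 12 h value stood between sham and the early livers, 2.89 ± 0.38 above sham (edgeR adjusted p = 1.60e-04), with 68.8% of the change left. Cebpd, a C/EBP transcription factor of the acute phase, was at 0.2199, 1.09 and 2.89 FPKM in sham, 10.3, 12.2 and 14.01 at 3 h, 7.74, 10.95 and 7.59 at 6 h and 1.47, 1.94 and 1.33 at 12 h. Its 12 h values lay within the sham range, with 5.34% left. Pim3, a survival kinase, also overlapped sham at 12 h (7.13, 22.7 and 37.8 FPKM in sham and 16.005, 18.9 and 14.7 at 12 h against 62.1 or more in the early livers).

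Acute phase genes, many of which encode proteins secreted by hepatocytes under the same cytokines, mostly stayed high at 12 h. The list also holds the metallothioneins, Steap4 and Cd14, which is among the Kupffer cell and macrophage markers too. Of 32 tested, 29 were called higher in the early contrast and none lower, and 6 met the rule, beside 5.67% of all tested genes: Cd14, Lbp, Mt1, Mt2, Saa4 and Steap4. At 12 h, 30 of 32 were above sham, with a median difference of 2.09. Lcn2, lipocalin 2, was at 187, 280.0 and 424 FPKM at 3 h, 619, 957 and 1290.0 at 6 h and 638, 480.2 and 721 at 12 h against 0.426, 0.8198 and 0.971 in sham, so that 102% of its early change was left. Saa2 overlapped in the same way, and its reads may be shared with Saa1.

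Among NF-kB factors and chemokines, 10 of 22 were called higher and 2 lower (7 and 5 with library totals). All early values were higher in Cxcl1, Nfkbib, Rela and Vcam1 and lower in Cxcl12. The inhibitor gene Nfkbib was at 14.4, 15.6 and 16.7 FPKM at 3 h and 16.4, 21.5 and 19.6 at 6 h against 3.69, 6.92 and 7.84 in sham and 6.46, 5.05 and 5.65 at 12 h (early minus other 1.51 ± 0.16). Interferon-stimulated genes had no member that met the rule among 26 tested, with 4 called higher and 3 lower (1 and 5 with library totals, 2 higher without 12 h replicate 3, and 1 lower without 12 h replicate 1). Over all tested genes, 17.3% were called higher and 18.7% lower, and 5.67% and 6.74% met the rule.

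Targets of the glucocorticoid receptor had the highest median of the 30 pathway lists, 1.92. Of 22 members, 17 were called higher and 1 lower, and all early values were higher in 12. Members such as Mt1, Mt2, Lcn2, Cdkn1a, Gadd45b, Sgk1 and Errfi1 are also in other lists given here, so the lists are not independent. Fkbp5, a cochaperone of the receptor, was at 0.721, 1.64 and 1.41 FPKM in sham, 16.7, 17.7 and 30.8 at 3 h, 16.6, 15.8 and 24.1 at 6 h and 6.73, 4.51 and 5.94 at 12 h. The groups did not overlap, and 12 h was still 2.17 ± 0.31 above sham (edgeR adjusted p = 3.00e-04). Tat, tyrosine aminotransferase of amino acid breakdown, was at 369, 531 and 624 FPKM in sham, 1338, 1377 and 2009 at 3 h, 1291, 1564 and 2052 at 6 h and 438, 447 and 692 at 12 h. Its 12 h values overlapped sham (0.04 ± 0.25, edgeR adjusted p = 0.932), as did those of the kinase gene Sgk1 (3.66, 4.101 and 5.63 FPKM in sham and 3.09, 3.81 and 4.26 at 12 h). Nr3c1, the receptor itself, was the member called lower, with means of 12.99 FPKM in sham, 6.605 at 3 h, 5.43 at 6 h and 10.9 at 12 h. Per1 was not called (0.58 ± 0.42, edgeR adjusted p = 0.305).

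Insulin signalling and FOXO targets went both ways: 8 of 24 were called higher and 7 lower (4 and 8 with library totals). Over all tested genes, the shares were 17.3% and 18.7%. Against sham, 1 of the 24 was higher at 12 h and 10 were lower, beside 13.5% and 15.3% of all tested genes. Irs2, an insulin receptor substrate, was at 4.32, 4.38 and 2.68 FPKM in sham, 14.1, 18.3 and 8.64 at 3 h, 19.97, 14.5 and 12.04 at 6 h and 5.29, 1.801 and 2.76 at 12 h, and its 12 h and sham values overlapped (-0.21 ± 0.37 for 12 h against sham, edgeR adjusted p = 0.702). Its paralog Irs1 was a falling gene, with means of 1.71 FPKM in sham, 0.497 at 3 h, 0.215 at 6 h and 0.761 at 12 h. Arrdc3, an arrestin-like adaptor, was at 46.96, 26.99 and 13.8 FPKM in sham, 2.598, 2.12 and 1.27 at 3 h, 2.74, 2.65 and 2.77 at 6 h and 7.62, 8.02 and 6.02 at 12 h. It was under sham at every time, and differed from it at 12 h by -2.02 ± 0.35 (edgeR adjusted p = 0.00104). Foxo3 (-1.35), Sesn1 (-0.90) and Sesn3 (-1.25) were also falling genes.

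Of 20 genes of glucose output, 8 were called higher and 2 lower, and all early values were higher in Crem, Got1, Gpt2, Pcx and Tat. With library totals 5 were higher. The gluconeogenic enzyme genes Pck1 (0.46 ± 0.21, edgeR adjusted p = 0.11) and G6pc (0.62 ± 0.33, edgeR adjusted p = 0.159) and the coactivator gene Ppargc1a were not called. Pck1 was called without sham replicate 1 (0.28) and without sham replicate 3 (0.62). Got1, the cytosolic aspartate aminotransferase, was at 231, 187 and 292 FPKM at 3 h and 233, 166 and 159 at 6 h against 77.5, 86.7 and 86.4 in sham and 67.2, 58.6 and 80.8 at 12 h.

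Amino acid breakdown and the urea cycle had 18 of 34 members called higher and none lower (2 lower with library totals), and 6 met the rule: Glud1, Got1, Sds, Sdsl, Tat and Tdo2. At 12 h, 7 of the 34 were above and 18 below sham. Sds, serine dehydratase, was at 27.999, 68.5 and 97.6 FPKM in sham, 277, 178 and 363 at 3 h, 191, 205 and 252 at 6 h and 27.8, 49.2 and 42.2 at 12 h. The early livers were all at 178 FPKM or more, and 12 h overlapped sham. Among amino acid transporters, Slc38a2, Slc16a10, Slc3a1 and Slc43a1 were rising genes, and Slc36a1 and Slc6a6 falling genes.

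In lipid handling, all early values were higher in Plin4, Plin5, Hilpda, Lpin1 and Pnpla2, and 9 of 21 lipid droplet and uptake genes were called higher and 1 lower (0 to 2 lower across the alternatives tried). Plin5, a lipid droplet coat protein of oxidative tissues, was at 5.78, 12.1 and 18.4 FPKM in sham, 75.1, 94.4 and 111 at 3 h, 61.3, 44.4 and 32.04 at 6 h and 15.1, 14.7 and 11.4 at 12 h. The 3 h values were all above the 6 h values, although 6 h against 3 h was not called (edgeR adjusted p = 0.0775). Angptl4, an inhibitor of lipoprotein lipase, was a rising gene (1.34 ± 0.40), whose edgeR call was lost without 12 h replicate 3 (1.24).

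Insig2, which holds the SREBP pathway in the endoplasmic reticulum, was at 93.5, 68.3 and 82.98 FPKM in sham, 284, 366 and 268 at 3 h, 334, 275 and 378 at 6 h and 54.7, 36.6 and 23.5 at 12 h. It was higher by 2.48 ± 0.19 in the early livers and differed from sham at 12 h by -1.10 ± 0.26 (edgeR adjusted p = 0.00661). Of 18 fatty acid synthesis genes, 4 were called higher and 4 lower, beside 17.3% and 18.7% of all tested genes. The list includes Insig2, and 7 were higher without sham replicate 1. In this pathway, 14 of the 18 were below sham at 12 h, beside 15.3% of all tested genes. Srebf1, the transcription factor of that pathway, did not turn back: it was at 30.9, 40.9 and 41.9 FPKM in sham, 13.9, 11.5 and 9.58 at 3 h, 6.43, 5.98 and 4.09 at 6 h and 4.94, 7.38 and 4.9001 at 12 h and stood -2.73 ± 0.23 from sham at 12 h (edgeR adjusted p = 5.50e-06).

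Ribosome biogenesis, which readies cells for growth, had 29 of 45 members called higher and 1 lower, with a median of 0.52. In all, 9 of 45 were rising genes beside 5.67% of all tested genes, among them Heatr1, Rrs1, Bop1, Nip7 and Polr1a, and 25 were above sham at 12 h. With library totals, 19 were called higher and 4 lower. Translation factors and tRNA synthetases were called higher in 16 of 36 and lower in 1 with TMM but in 4 and 6 with library totals, so that their direction depends on the scaling. The lists that follow are read beside 17.3% called higher and 18.7% lower over all tested genes with TMM. The split likewise moved with the scaling for the unfolded protein response (5 higher and 2 lower of 25, or 2 and 7), heat shock proteins (4 and 4 of 22, or 3 and 9), the integrated stress response (5 and 2 of 14, or 3 and 5) and cytochrome P450 genes (8 and 2 of 28, or 3 and 5). Leaving out 1 library also moved some of these counts: 3 genes of the unfolded protein response were called higher without 12 h replicate 2 or 6 h replicate 2, 3 of the integrated stress response without 12 h replicate 1, 3 h replicate 2, 3 h replicate 3 or 6 h replicate 2, and 5 P450 genes without 12 h replicate 3. Against sham, 2 of the 28 P450 genes were higher at 12 h and 18 lower (median -0.90), so their pooled contrast also holds a change at 12 h. Xbp1, a factor of the unfolded protein response, met the rule under both scalings, at 59.6, 76.1 and 67.96 FPKM in sham, 169, 174 and 178 at 3 h, 224, 227 and 224 at 6 h and 84.5, 89.9 and 91.7 at 12 h.

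Of 17 p53 targets, 7 were called higher and 4 lower, and all early values were higher in Cdkn1a, Btg2, Fas, Gadd45a, Gdf15 and Plk3. The gene of p53 itself, Trp53, was a rising gene with a small difference, at means of 5.104 FPKM in sham, 6.18 at 3 h, 8.28 at 6 h and 4.87 at 12 h (0.49). The cell death receptor gene Fas was higher by 0.79, and its 12 h level was not called against sham (edgeR adjusted p = 0.69).

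**Figure D3:**
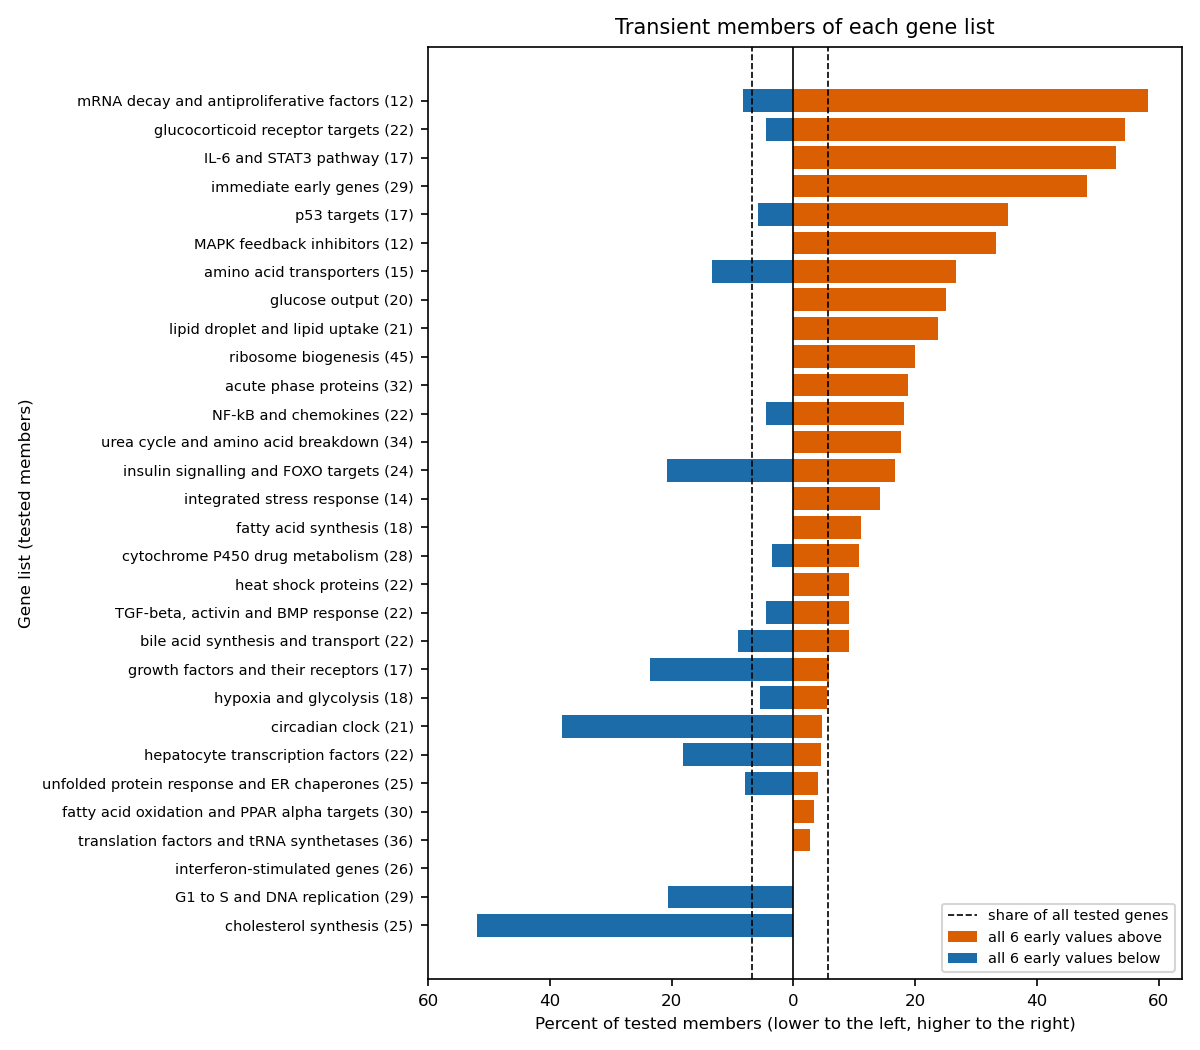
Share of the tested members of each of 30 gene lists (number of tested members in brackets) whose 6 early values were all above (orange, to the right) or all below (blue, to the left) the sham and 12 h values. Dashed lines mark the shares of all 11451 tested genes, 5.67% above and 6.74% below. Of the mRNA decay and antiproliferative factors, 7 of 12 lie above, and 13 of 25 cholesterol synthesis genes lie below.

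Among named protein-coding falling genes of at least 5 FPKM in the sham and 12 h livers, the largest difference was in Cyp7a1. Cyp7a1 (ENSMUSG00000028240, chr4:6265612-6275633), the hydroxylase that limits the making of bile acids from cholesterol, was at 39.6, 9.61 and 13.6 FPKM in sham, 2.01, 0.7102 and 2.44 at 3 h, 0.3702, 0.218 and 0.123 at 6 h and 13.6, 29.9 and 45.8 at 12 h. Every early value was at most 2.44 FPKM and every other value at least 9.61, and the 12 h values overlapped sham. Early and other livers differed by -5.31 ± 0.48, and 12 h against sham was 0.50 ± 0.53 (edgeR adjusted p = 0.513). Among 22 genes of bile acid synthesis and transport, 4 were called higher and 7 lower, beside 17.3% and 18.7% of all tested genes. With library totals, 11 were lower. Against sham, 1 of the 22 was higher at 12 h and 12 were lower, beside 13.5% and 15.3% of all tested genes. The uptake transporter gene Slco1b2 was the other falling gene, and Acox2 and Baat were rising genes. Nr0b2, which encodes the repressor SHP, was not called (-0.50 ± 0.20, edgeR adjusted p = 0.0711), although it was without sham replicate 1 (-0.58), 6 h replicate 2 (-0.65) or 12 h replicate 3 (-0.60).

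Cholesterol synthesis had the largest share of falling genes among the 30 pathway lists. Of 25 tested members, 18 were called lower and 1 higher (0 to 2 higher across the alternatives tried), with a median of -1.10, and all early values were lower in 13, among them Cyp51, Fdft1, Fdps, Hmgcs1, Idi1, Insig1, Lss, Msmo1, Mvd, Mvk and Stard4. Against sham at 12 h, 3 were higher and 6 lower, with a median of -0.08. Hmgcs1, the cytosolic HMG-CoA synthase, was at 146, 67.8 and 56.9 FPKM in sham, 37.5, 21.1 and 24.01 at 3 h, 14.9, 16.9 and 16.1 at 6 h and 47.4, 109 and 100.5 at 12 h. The 12 h values spread around the sham values (-0.08 ± 0.35, edgeR adjusted p = 0.891), and 12 h replicate 1 was the lowest of its group.

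Insig1, an SREBP target whose protein feeds back on the pathway, was at 151, 123 and 104 FPKM in sham, 18.8, 19.04 and 14.7 at 3 h, 17.2, 22.98 and 20.8 at 6 h and 34.02, 71.99 and 65.4 at 12 h. It had come only part of the way back, -1.16 ± 0.25 from sham at 12 h (edgeR adjusted p = 0.00364) with 41.6% of the change left. Its paralog Insig2 moved in the opposite direction, as given above.

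Clock output genes formed another group of falls. Of 21 clock genes, 9 were called lower and 4 higher, and all early values were lower in 8, among them Cry2, Dbp, Hlf, Nr1d2, Per2, Per3 and Tef, and higher in Nfil3. Dbp, a PAR bZIP transcription factor driven by the clock, was at 2.08, 10.2 and 7.11 FPKM in sham, 0.3297, 0.264 and 0.233 at 3 h, 0.164, 0.3903 and 0.197 at 6 h and 15.02, 17.1 and 13.7 at 12 h. The early values were all under 0.40 FPKM, sham replicate 1 was the lowest of the rest, and 12 h was 1.23 ± 0.39 above sham (edgeR adjusted p = 0.0302). Tef, of the same family, was at 7.11, 11.6 and 11.6 FPKM in sham, 2.24, 1.56 and 3.99 at 3 h, 1.25, 2.34 and 2.14 at 6 h and 16.2, 16.9 and 15.8 at 12 h. Its 12 h values were all above sham without a call (0.68 ± 0.30, edgeR adjusted p = 0.106).

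Per3 was at 0.551, 1.28 and 1.13 FPKM in sham, 0.07702, 0.0686 and 0.101 at 3 h, 0.0512, 0.0473 and 0.1303 at 6 h and 4.18, 3.19 and 3.51 at 12 h, and at 12 h it passed sham by 1.86 ± 0.30 (edgeR adjusted p = 5.56e-04). Per2 did so too, by 1.66 (edgeR adjusted p = 2.89e-04). Nfil3, a bZIP repressor that competes with Dbp and Tef for the same sites, had means of 11.5 FPKM in sham, 45.03 at 3 h, 37.2 at 6 h and 9.31 at 12 h. The core activators Arntl (Bmal1) and Npas2 were called higher in the early contrast, yet sham overlapped the early values and 12 h was the group apart: Arntl was at 3.895, 1.62 and 1.55 FPKM in sham, 3.62, 3.81 and 3.16 at 3 h, 3.0999, 2.795 and 3.75 at 6 h and 0.187, 0.211 and 0.261 at 12 h. Nr1d1 was not called (-0.73 ± 0.31, edgeR adjusted p = 0.0851) but was without 3 h replicate 3 (-0.98).

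**Figure D4:**
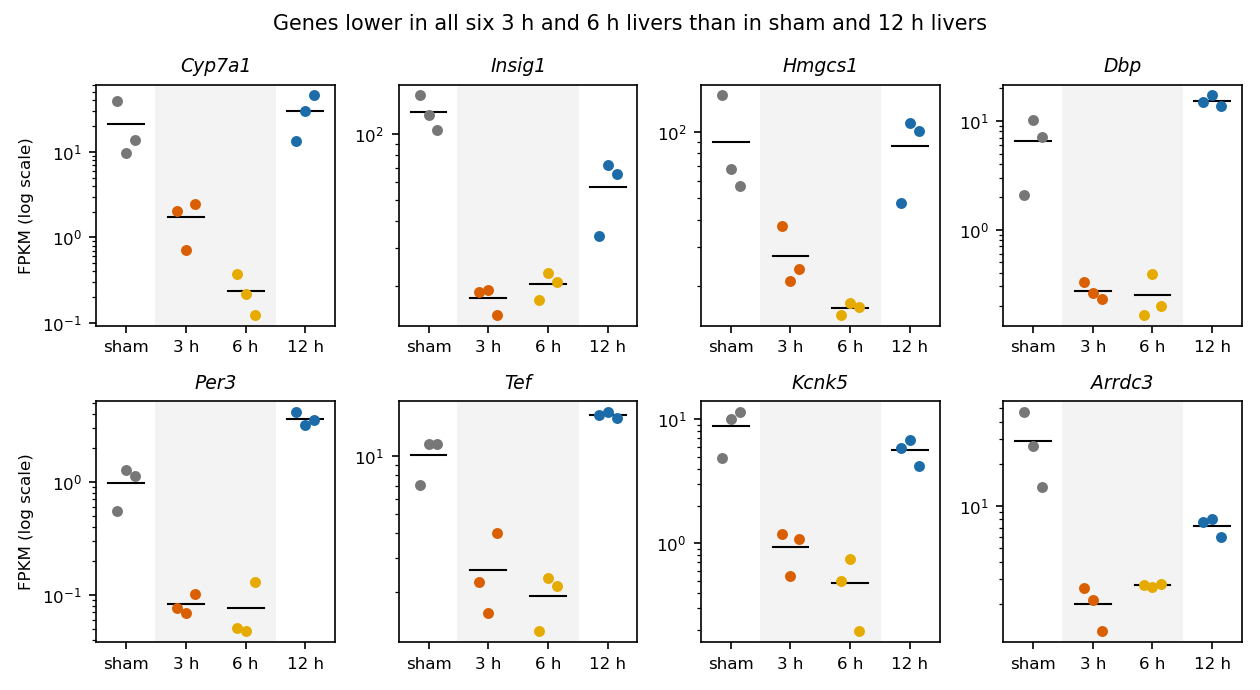
FPKM (log scale) of 8 falling genes in sham livers and at 3, 6 and 12 h, with 1 point per library, black bars for group means of 3 libraries and grey shading over the early groups. Cyp7a1, Hmgcs1 and Kcnk5 overlap sham at 12 h, Dbp, Tef and Per3 lie above it, and Insig1 and Arrdc3 remain below it.

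Among the other large falls, Clec2h, a C-type lectin gene, was at 5.69, 4.902 and 6.45 FPKM in sham, 0.228, 0.292 and 0.694 at 3 h, 0.1296, 0.0479 and 0.0815 at 6 h and 2.896, 7.14 and 5.29 at 12 h, with overlap of 12 h and sham. Kcnk5, an acid-sensitive potassium channel, was at 4.82, 9.98 and 11.4 FPKM in sham, 1.196, 0.542 and 1.08 at 3 h, 0.495, 0.744 and 0.195 at 6 h and 5.86, 6.77 and 4.23 at 12 h. Apol7a, an apolipoprotein L gene, was at 42.3, 35.4 and 31.1 FPKM in sham, 12.2, 8.96 and 10.8 at 3 h, 5.57, 3.45 and 2.796 at 6 h and 33.2, 35.04 and 33.9 at 12 h, and its 12 h values lay within the sham range. The progestin receptor gene Paqr7 (-2.25), the neuronal regeneration related gene Nrep (-3.45), the F-box gene Fbxo21 (-2.14), the nuclear receptor Nr1d2 (-2.13) and the membrane metalloproteinase Mmp15 (-2.06) complete the 15, with Gmnn below. All 15 met the rule with library totals too. On the log2(FPKM + 1) scale the falls of genes with low levels were smaller, such as -3.03 for Dbp, -1.48 for Per3, -2.34 for Clec2h and -2.22 for Kcnk5, and so were rises such as 1.34 for Fos, 1.14 for Dusp8 and 1.89 for Syt12.

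In 3 further lists, the share of members is read beside 5.67% rising and 6.74% falling over all tested genes. Of 30 genes of fatty acid oxidation, 8 were called higher and 1 lower, counts that ran from 3 to 15 and 1 to 4 over the alternatives tried (3 higher without 12 h replicate 3, and 2 lower without sham replicate 1 or 6 h replicate 1), and Angptl4 was the 1 rising gene. Of 18 genes of hypoxia and glycolysis, 7 were called higher and 3 lower (1 lower without 3 h replicate 1 or 3 and 5 without sham replicate 1), with Pfkfb3, a regulator of glycolysis, as the rising gene and Vegfa as the falling gene. In the TGF-beta, activin and BMP response, 7 of 22 were called higher and 3 lower (7 lower with library totals). Its rising genes were Inhbb and Id2, an inhibitor of basic helix-loop-helix factors, and its falling gene was Smad3, a transducer of TGF-beta.

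Growth factors and their receptors had 9 of 17 members called lower and 3 higher. All early values were lower in the receptor genes Met (HGF), Erbb3 (neuregulin) and Fgfr4 (FGF19 family) and in Vegfa. Met had means of 10.96 FPKM in sham, 7.19 at 3 h, 6.66 at 6 h and 13.5 at 12 h, and 12 h was not called against sham (edgeR adjusted p = 0.291). Erbb3 was still lower than sham at 12 h (-0.82, edgeR adjusted p = 0.00282).

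Hepatocyte transcription factors went both ways. Of 22, 3 were called higher and 7 lower, beside 17.3% and 18.7% of all tested genes (6 higher without sham replicate 1). Hnf4a, the nuclear receptor that maintains hepatocyte identity, was at 71.5, 91.7 and 103 FPKM in sham, 178, 182 and 218 at 3 h, 159, 159 and 166 at 6 h and 72.1, 79.4 and 86.2 at 12 h, and 12 h overlapped sham (-0.18 ± 0.15 for 12 h against sham, edgeR adjusted p = 0.406). Foxa1, a pioneer factor, was at 2.78, 4.38 and 3.68 FPKM at 3 h and 3.55, 3.57 and 2.86 at 6 h against 5.78, 6.12 and 5.86 in sham and 6.85, 7.57 and 6.97 at 12 h (early minus other -0.94 ± 0.12). The xenobiotic receptor gene Nr1i3 (CAR) was at 3.84, 5.54 and 5.76 FPKM in sham, 3.58, 3.88 and 3.71 at 3 h, 2.21, 1.69 and 1.17 at 6 h and 10.5, 7.51 and 6.06 at 12 h, and its highest 3 h value was above the lowest of sham on this scale, while the TMM-scaled counts that the rule reads did not overlap. It dropped further from 3 h to 6 h (-1.12 ± 0.25, edgeR adjusted p = 0.0168). Its classic target Cyp2b10 was a rising gene in the same livers.

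Genes of the G1 to S transition show where a call on the pooled contrast is not an early fall. Of 29 tested, 22 were called lower and none higher in the early livers, with a median of -1.03, but 24 were above sham at 12 h, by a median of 1.49. The filter of 1 FPKM in 3 libraries can be met by the 12 h livers alone, as by Mcm5 below. These counts are therefore partly set by the filter. The members that met the rule were 6 of 29, beside 6.74% of all tested genes lying below: Ccne2, Cdk2, Cdk6, Cdkn2c, Rfc3 and Rfc4. Mcm5, a subunit of the replicative helicase, was at 0.368, 0.808 and 0.417 FPKM in sham, 0.834, 0.577 and 0.366 at 3 h, 0.299, 0.293 and 0.443 at 6 h and 4.88, 10.7 and 6.77 at 12 h. The sham and early values overlapped, and 12 h alone stood apart, 3.79 ± 0.38 above sham (edgeR adjusted p = 2.06e-05). Gmnn, geminin, which blocks the loading of that helicase, was at 2.61, 2.57 and 2.77 FPKM in sham, 1.26, 0.5396 and 1.24 at 3 h, 0.815, 0.797 and 0.855 at 6 h and 5.98, 12.5 and 8.14 at 12 h: it was under sham in the early livers and above it at 12 h, by 1.73 ± 0.30 (edgeR adjusted p = 0.00105). Cyclin D1, Ccnd1, was at 1.6996, 4.32 and 3.302 FPKM in sham, 6.27, 8.03 and 6.34 at 3 h, 12.5, 6.34 and 7.94 at 6 h and 30.3, 26.3 and 21.98 at 12 h and was not called in the early contrast (-0.24 ± 0.21, edgeR adjusted p = 0.406).

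Some rising genes went past sham on the way down. The largest such drops among rising genes of at least 5 FPKM, called in 12 h against sham, were in St5, Clpx, Pnrc1 and Igfbp1. St5, a guanine nucleotide exchange factor, was at 8.605, 9.12 and 9.03 FPKM in sham, 18.7, 27.5 and 16.8 at 3 h, 16.4, 13.4 and 14.2 at 6 h and 2.11, 1.699 and 1.33 at 12 h. Clpx, the unfoldase of the mitochondrial ClpXP protease and an activator of heme synthesis, was at 94.3, 50.9 and 50.6 FPKM in sham, 118, 135 and 126 at 3 h, 137, 119 and 136 at 6 h and 16.99, 18.6 and 18.7 at 12 h. Pnrc1, a nuclear receptor coregulator, was at 47.8, 35.8 and 34.5 FPKM in sham, 71.4, 94.9 and 53.7 at 3 h, 66.5, 64.97 and 93.2 at 6 h and 13.6, 10.04 and 11.01 at 12 h. In each, the 12 h values were all below every sham value, and the differences from sham were -2.39 ± 0.21, -1.86 ± 0.21 and -1.78 ± 0.23 (edgeR adjusted p = 7.14e-06, 4.76e-05 and 1.35e-04). On the log2 scale the sham means of all 3 genes lay nearer the early values than the 12 h values. Pnrc1 did not meet the rule with library totals.

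Among named protein-coding rising genes of at least 5 FPKM that were called in 12 h against sham, and apart from Mt2 with its few sham counts, the largest differences still present were in Mt1, Cxcl1, Syt12 and Socs3. Syt12 was at 0.266, 0.165 and 0.169 FPKM in sham, 3.18, 5.77 and 7.09 at 3 h, 9.52, 7.64 and 9.57 at 6 h and 2.901, 2.27 and 2.82 at 12 h, with 73.5% of the change left. Inhbb, the activin B subunit gene, was at 0.332, 0.265 and 0.244 FPKM in sham, 2.03, 2.895 and 2.85 at 3 h, 2.49, 2.07 and 3.53 at 6 h and 1.44, 1.42 and 1.53 at 12 h, with 74.01% left and 2.37 ± 0.26 above sham (edgeR adjusted p = 3.55e-05). Among falling genes, Arrdc3 (-2.02) and the P450 gene Cyp2u1 (-1.73, edgeR adjusted p = 6.40e-05) were furthest below sham of those described.

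In 6 h against 3 h, 16 rising genes were called higher and 10 lower, beside 4.45% higher and 4.18% lower over all tested genes. Among falling genes, 7 were called higher and 58 lower. The rule asks 3 h and 6 h to lie on the same side and so removes genes whose early times differ in direction, which limits these counts. All 3 values at 6 h lay above those at 3 h for 119 rising and 58 falling genes (18.4% of all tested genes), and below for 66 rising and 176 falling genes (16.6%). These counts moved widely when 1 library was left out: 1 to 56 rising genes higher, 3 to 20 lower, 2 to 19 falling genes higher and 26 to 106 lower. The highest of each came without sham replicate 1. The lowest came without 3 h replicate 1 for rising genes higher, 6 h replicate 1 for falling genes higher and 6 h replicate 2 for both counts of genes lower.

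The falls that deepened from 3 h to 6 h included Lrrc3, a leucine-rich repeat protein gene, at 18.6, 20.9 and 20.03 FPKM in sham, 12.3, 10.2 and 10.1 at 3 h, 3.12, 2.83 and 2.35 at 6 h and 13.5, 15.04 and 13.2 at 12 h (-1.96 ± 0.15 for 6 h against 3 h, edgeR adjusted p = 2.43e-05). Slc46a3, a lysosomal transporter gene, was at 21.5, 16.5 and 17.9 FPKM in sham, 10.9, 10.5 and 9.15 at 3 h, 3.29, 2.96 and 3.68 at 6 h and 15.9, 25.9 and 18.4 at 12 h (-1.61 ± 0.19, edgeR adjusted p = 5.28e-04), and Mmp15 was at 4.73, 8.52 and 10.97 FPKM in sham, 4.31, 3.48 and 3.74 at 3 h, 1.12, 0.926 and 0.505 at 6 h and 7.34, 7.43 and 5.45 at 12 h (-2.16 ± 0.32, edgeR adjusted p = 0.00158). In all 3 genes every 6 h value was below every 3 h value. Cyp7a1 (-2.83 ± 0.73, edgeR adjusted p = 0.0318) and Clec2h (-2.17 ± 0.61, edgeR adjusted p = 0.0452) were called as well, but Cyp7a1 lost its call without 3 h replicate 1 or 3 or without any of the 6 h replicates, and Clec2h without any of 7 libraries.

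Sap130, a subunit of the SIN3 corepressor, was the called falling gene with the largest recovery by 6 h, at 2.695, 2.68 and 2.25 FPKM at 3 h and 4.02, 4.31 and 4.47 at 6 h (0.76 ± 0.15, edgeR adjusted p = 0.00765). Among rising genes, the largest further rises were in Arfip2, Ralgapa2, Tbc1d8 and Ddx28. Arfip2, which encodes a Golgi adaptor of small GTPases, was at 2.09, 2.16 and 3.098 FPKM in sham, 5.22, 4.96 and 5.99 at 3 h, 8.24, 9.51 and 13.7 at 6 h and 3.26, 3.08 and 3.78 at 12 h (0.97 ± 0.20, edgeR adjusted p = 0.0104). The call for Arfip2 was lost without 3 h replicate 1 (0.95), and those of the other 3 without several libraries in turn.

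Markers of other liver cell types were summed in each library. The 17 Kupffer cell and macrophage markers summed to 138 to 188 FPKM (sham), 197 to 233 (3 h), 136 to 162 (6 h) and 94.9 to 120.5 (12 h). Endothelial markers summed to 64.7 to 78.9 FPKM (sham), 88.4 to 115 (3 h), 64.3 to 77.4 (6 h) and 48.8 to 61.4 (12 h). Stellate cell and fibroblast markers summed to 66.2 to 93.02 FPKM (sham), 112 to 147 (3 h), 87.9 to 90.2 (6 h) and 61.8 to 73.7 (12 h), and red blood cell markers to 93.04 to 119 (sham), 150 to 176 (3 h), 87.9 to 116 (6 h) and 47.9 to 69.3 (12 h). These 4 sums were above the sham range at 3 h but overlapped it at 6 h. Cholangiocyte markers summed to 26.4 to 29.3 FPKM (sham), 35.6 to 45.6 (3 h), 37.2 to 46.5 (6 h) and 30.6 to 38.3 (12 h) and were above the sham range at each time. T and NK cell markers summed to 2.19 to 2.87 FPKM (sham), 1.89 to 2.68 (3 h), 1.31 to 1.82 (6 h) and 0.339 to 1.45 (12 h). B and plasma cell markers summed to 5.65 to 9.44 FPKM (sham), 3.48 to 9.18 (3 h), 2.07 to 2.68 (6 h) and 1.49 to 3.24 (12 h). Both sums overlapped the sham range at 3 h and were below it at 6 h and 12 h. In the early contrast, 5 of 15 tested Kupffer cell, 9 of 17 endothelial (3 with library totals), 7 of 16 stellate, 4 of 5 red blood cell and 3 of 4 cholangiocyte markers were called higher. One cholangiocyte marker (1 of 4) was called lower, a call lost in 10 of 21 alternatives. Rising genes among these markers were Cd14, Plac8, Pecam1, Stab1, Epcam and Sox9, and the falling one was Anxa4. The part of these cell types in the results was not tested.

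Some features that the rule does not name are given beside all tested genes. Protein-coding genes made up 603 of 649 rising and 693 of 772 falling genes (92.9% and 89.8%), beside 86.1% of all tested genes. The median genomic span was 18977 bases in rising and 35485 in falling genes beside 18188 in all, and the median of the deposited gene length 3872 and 5351 beside 3673. The median level was 6.23 FPKM in rising genes, 2.74 in falling genes and 4.02 in all. It is taken over the same 12 libraries that the rule reads and is therefore not independent of the rule. Transcription factors, by the family column of the deposited table, were 52 rising (8.01%) and 57 falling genes (7.38%), beside 5.62% of all.

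Counts of 3 families, chosen after their values were seen, are given beside 5.67% rising and 6.74% falling over all tested genes. Of 34 tested bZIP factors, 9 were rising genes (Creb3l2, Crem, Fos, Fosl2, Jun, Junb, Mafk, Nfil3 and Xbp1) and 4 falling genes (Dbp, Hlf, Nfe2l2 and Tef). The thyroid hormone receptor-like nuclear receptors had 5 falling members of 17 (among them Nr1d2, Nr1i3, Pparg and Rara) and no rising one. Zinc finger factors of the C2H2 class gave 13 rising and 11 falling genes of 271, not above those shares. Several bZIP factors, such as Fos, Jun, Xbp1 and Dbp, are also members of the gene lists above. These counts describe the members and were not tested.

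The strand used in counting is not given in the sources used here. Reads of a gene and of a tested gene that overlaps it on the other strand can therefore not be told apart, which touches, among others, Cdkn1a with AC167363.2, Mt2 with Gm45774, Clpx with Gm16218, Hnf4a with Hnf4aos, Plin4 with Hdgfl2, Srebf1 with Rai1, Ccnd1 with Oraov1, Nr1d1 with Thra, Junb with Prdx2, Dbp with Sphk2, Tacc2 with Fgfr2, Nfkbib with Sirt2, Sds with Plbd2, Arfip2 with Timm10b, Nr1i3 with Tomm40l and Heatr1 with Lgals8.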

How the data were processed

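Raw counts and FPKM per gene were deposited by the authors, as whole-number counts with no normalization and FPKM per length and depth, per the file headers. The submitters' processing notes name CASAVA 1.8, fastp, HISAT2 2.0.5, featureCounts 1.5.0-p3, DESeq2 1.20.0 and GRCm38 (mm10), without their roles. A gene entered the fit when 3 libraries reached 1 FPKM. All 12 libraries were fitted in 1 edgeR 4.0.16 quasi-likelihood model with 4 groups and TMM scaling (R 4.3.3), and two-sided p-values were adjusted by Benjamini-Hochberg for 11451 genes, with calls at 0.05. SE is the log2 difference divided by the square root of the F statistic. Non-overlap was read on TMM-scaled counts. Precision rests on depth (15573405 to 17199639 counts per library) and on variation between replicates (edgeR's BCV, 20.6%). The scripts were tested on simulated data.

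The members and the 30 pathway and 9 marker lists were chosen with earlier results of these data known. Of 819 list symbols, 1 had no match. Lists share members, so a gene can be counted under several. Named are the 15 largest rises and falls (named protein-coding genes, 5 FPKM or more in the higher libraries, called), up to 4 called members per list, list members that met the rule, fixed genes, genes at the edge of the rule, and the 5 largest differences each way of 12 h from sham and of 6 h from 3 h among eligible members. Transcription factor families singled out, Stat3, Trp53, Met and other members given by means were chosen after their values were seen. No library was left out. Values of some list members are not reported here. Alternatives were DESeq2 1.42.0, limma 3.58.1 (voom, and FPKM with pseudocounts of 0.1 and 1), other scalings and filters, a 2-fold minimum, 2 groups of 6, the replicate block and each library left out.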

Additional observations from a re-analysis of the deposited data

How the results depend on the processing

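Genes called higher and lower in the early contrast numbered 969 and 4047 with library totals, 225 and 174 with a 2-fold minimum, and 1057 higher with 2 groups of 6, and ran from 1645 to 2286 and 1787 to 2255 with 1 library left out. Genes lying above and below numbered 274 and 1701 on unscaled counts, 319 and 1575 with library totals, and 168 and 178 with a gap of 0.5. Added after seeing the data, TMM and library totals together gave 319 above, as did both with FPKM. With 1 library left out, 679 to 749 lay above and 808 to 887 below.

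For 12 h against sham, leaving out 1 library gave 74 to 121 rising genes higher, 26 to 91 lower, and 32 to 125 falling genes higher, 44 to 95 lower. Without sham replicate 1 and 6 h replicate 3 together, 93 rising were lower and 132 falling higher. For 6 h against 3 h, leaving out 1 library gave 1 to 56 rising genes higher, 3 to 20 lower, and 2 to 19 falling genes higher, 26 to 106 lower. Rising genes higher numbered 28 with DESeq2, 8 with library totals, 10 with a pseudocount of 0.1, 36 with no filter and 29 without both libraries. Rising genes lower numbered 20 with no filter and 19 without both. Falling genes higher numbered 12 with DESeq2, 3 with library totals, 4 with a pseudocount of 1, 4 with voom, 12 with no filter, 4 with the replicate block and 11 without both. Falling genes lower numbered 94 with library totals and 88 without both. The cause was not tested.

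Replicate numbers did not pair the samples: correlations of 18 same-number pairs ran from -0.255 to 0.173, with 4 over 0.1. The replicate block gave 1824 genes higher and 1967 lower. The early difference of Ppargc1a (-0.10) ran from -0.1924 to 0.0631 with 1 library left out and changed sign without 3 h replicate 2, 6 h replicate 2 (0.0046) and sham replicate 1 (0.0291). Of the named-gene values under these alternatives, 3706 kept direction and call, 116 lost and 18 gained the call. Differences of genes with few counts, such as Mt2 and Ccne2, are limited by depth.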
